A study of Mus musculus with 2 samples.

Results

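The genes described here are 34 genes of DNA replication, mitosis and the centromere, out of 21911 protein-coding genes of the GENCODE M21 annotation. They were listed by function: 16 act in replication and 18 in mitosis, and of the latter 4 belong to the centromere. Their promoters were read in DNase-seq data, which map DNA that the enzyme DNase I can cut in nuclei, from the mouse line MN1, whose cells are immortalized and of strain B6NCrl. The series has 1 group of 2 biological replicates, with 1 library each and no treatment in the labels, which give the age as unknown and the sex as not collected. Every measurement therefore comes from 1 cell line in 1 state, and the 2 libraries give the only replicate error.

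A dividing cell copies its DNA once and then parts the copies. The origin recognition complex, Cdc6 and Cdt1 load the Mcm helicase on DNA before S phase, cyclin E with Cdk2 starts synthesis, and cyclins A and B with Cdk1 bring the cell into mitosis. Promoters of replication genes are known for E2F sites. Promoters of mitotic genes are known for the cell cycle genes homology region (CHR), an element bound by the MuvB complex, often with CCAAT boxes bound by NF-Y nearby.

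A promoter was the sequence within 1 kb of any annotated transcription start site. Peaks are 150 bp wide and carry the authors' score, which runs from 1 to 150 and has no stated normalization, so each score was read as a percentile within its own library. Replicate 1 held 170286 peaks on the main chromosomes and replicate 2 held 162691, of which 67.1% and 70.2% overlapped a peak of the other library. Read depth is unknown.

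Each of the 34 had a promoter peak in both libraries, and in each gene peaks of the 2 libraries overlapped. Over all protein-coding genes, 59.2% (12973 of 21911) had a promoter peak in both. A promoter hotspot, a broader region of enriched cutting, was also present in both libraries at all 34 genes, against 59.4% of all genes. The hotspot q-value stood at the cap of 100 on the −log10 scale in both libraries at each of the 34, against 55.7% of all genes and 93.7% of those with a promoter peak in both. High CpG content goes with promoter peaks in these libraries: 87.6% of the 10068 genes with a CpG observed/expected ratio of 0.6 or more had a peak in both, and 35.0% of the other 11843. The ratio was 0.6 or more at 30 of the 34 genes. The other 4 were Mcm7 (0.559), Mcm2 (0.596), Tyms (0.544) and Cdk1 (0.526).

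The best shared peak is the overlapping promoter peak with the highest percentile over both libraries. The sequences below, apart from that of Hjurp, are examples picked because they hold an E2F or CHR word. The best shared peak held neither in 13 of 16 replication genes and 12 of 18 mitotic and centromere genes. Searched on both strands were the E2F words TTTCCCGC, TTTCGCGC, TTTGGCGC and TTTGCCGC, the CHR words TTTGAA and TTCGAA, and CCAAT. Capitals mark these matches, and every sequence runs 5′ to 3′ on the strand of its gene, from the GRCm38.p6 genome of RefSeq (mm10). Mcm4 (chr16:15637396-15637545, minus strand) and Mcm6 (chr1:128359676-128359825, minus strand), subunits of the replicative helicase, are the replication genes with an E2F word in the peak itself.
Mcm4: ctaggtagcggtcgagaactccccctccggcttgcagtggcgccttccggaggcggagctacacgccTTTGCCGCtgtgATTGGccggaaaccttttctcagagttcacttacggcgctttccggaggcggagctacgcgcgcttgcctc
Mcm6: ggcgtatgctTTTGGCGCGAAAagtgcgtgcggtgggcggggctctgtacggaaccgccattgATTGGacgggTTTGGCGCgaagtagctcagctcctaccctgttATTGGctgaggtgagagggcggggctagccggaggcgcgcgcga
Cdk1 (chr10:69352936-69353085, minus strand), the kinase that starts mitosis, holds words of both kinds in 1 peak.
Cdk1: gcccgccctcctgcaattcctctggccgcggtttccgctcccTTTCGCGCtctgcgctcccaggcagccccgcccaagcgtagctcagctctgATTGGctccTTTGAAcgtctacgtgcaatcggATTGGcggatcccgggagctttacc
Bub1, a checkpoint kinase at kinetochores (chr2:127831836-127831985, minus strand), Mki67, which coats mitotic chromosomes (chr7:135716456-135716605, minus strand), and Top2a, the topoisomerase that untangles sister DNA (chr11:99024276-99024425, minus strand), hold CHR words with CCAAT words upstream.
Bub1: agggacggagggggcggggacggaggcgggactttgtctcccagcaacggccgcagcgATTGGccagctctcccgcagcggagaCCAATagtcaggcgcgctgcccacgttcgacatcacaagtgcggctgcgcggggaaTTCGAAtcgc
Mki67: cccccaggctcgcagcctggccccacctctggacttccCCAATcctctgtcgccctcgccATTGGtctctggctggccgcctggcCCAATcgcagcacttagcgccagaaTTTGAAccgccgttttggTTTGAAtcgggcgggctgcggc
Top2a: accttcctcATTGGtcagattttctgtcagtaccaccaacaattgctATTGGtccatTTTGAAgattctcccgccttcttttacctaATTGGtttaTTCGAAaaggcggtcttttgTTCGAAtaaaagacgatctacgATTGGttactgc
Hjurp, the chaperone that brings the centromeric histone to its place, had the highest mean percentile of the 34. The stretch of its peak that is shown (chr1:88277604-88277705, minus strand, the rest being untranslated exon) holds none of these words, and the capitals mark the ETS word CCGGAAG.
Hjurp: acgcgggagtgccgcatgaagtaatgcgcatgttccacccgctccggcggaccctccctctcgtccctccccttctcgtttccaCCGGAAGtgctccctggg
In some other genes the E2F or CHR words lie beside the peak rather than in it. The next sequences run up to 160 bases upstream and 30 bases downstream of the RefSeq start. Replication genes were picked here for an E2F word and mitotic and centromere genes for a CHR word. Cdk2, which drives S phase (chr10:128705022-128705211, minus strand), and the helicase genes Mcm5 (chr8:75109349-75109538, plus strand) and Mcm3 (chr1:20820283-20820472, minus strand) hold E2F words. Mcm5 carries them as a pair that overlaps on opposite strands, as Mcm6 does.
Cdk2: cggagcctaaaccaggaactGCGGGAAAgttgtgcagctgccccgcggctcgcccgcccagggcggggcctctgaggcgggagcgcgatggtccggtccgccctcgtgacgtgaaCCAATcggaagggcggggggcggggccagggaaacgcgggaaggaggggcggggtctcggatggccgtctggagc
Mcm5: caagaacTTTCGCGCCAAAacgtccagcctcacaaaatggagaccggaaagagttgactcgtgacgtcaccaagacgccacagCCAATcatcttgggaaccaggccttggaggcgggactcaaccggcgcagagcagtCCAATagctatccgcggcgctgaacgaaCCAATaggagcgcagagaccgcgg
Mcm3: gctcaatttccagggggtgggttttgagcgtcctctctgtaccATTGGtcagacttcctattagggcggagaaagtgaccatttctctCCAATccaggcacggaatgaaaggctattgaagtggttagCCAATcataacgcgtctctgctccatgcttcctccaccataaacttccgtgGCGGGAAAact
Cenpf, a protein of the outer kinetochore (chr1:189688057-189688246, minus strand), Kif11, the motor that pushes spindle poles apart (chr19:37376222-37376411, plus strand), and Cdc20, the activator of the anaphase-promoting complex (chr4:118437323-118437503, minus strand), hold CHR words.
Cenpf: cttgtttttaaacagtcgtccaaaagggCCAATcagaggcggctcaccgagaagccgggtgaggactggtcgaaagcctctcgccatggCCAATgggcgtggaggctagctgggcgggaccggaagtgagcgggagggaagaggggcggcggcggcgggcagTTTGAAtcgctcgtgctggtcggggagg
Kif11: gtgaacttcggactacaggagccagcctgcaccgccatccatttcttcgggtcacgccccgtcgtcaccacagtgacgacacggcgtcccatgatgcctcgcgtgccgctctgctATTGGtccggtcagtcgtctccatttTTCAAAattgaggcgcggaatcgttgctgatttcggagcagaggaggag
Cdc20: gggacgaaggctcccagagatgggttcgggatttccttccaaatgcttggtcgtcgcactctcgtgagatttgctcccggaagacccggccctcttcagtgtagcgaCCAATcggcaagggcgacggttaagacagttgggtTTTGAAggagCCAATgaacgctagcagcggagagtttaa

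**Figure D1:**
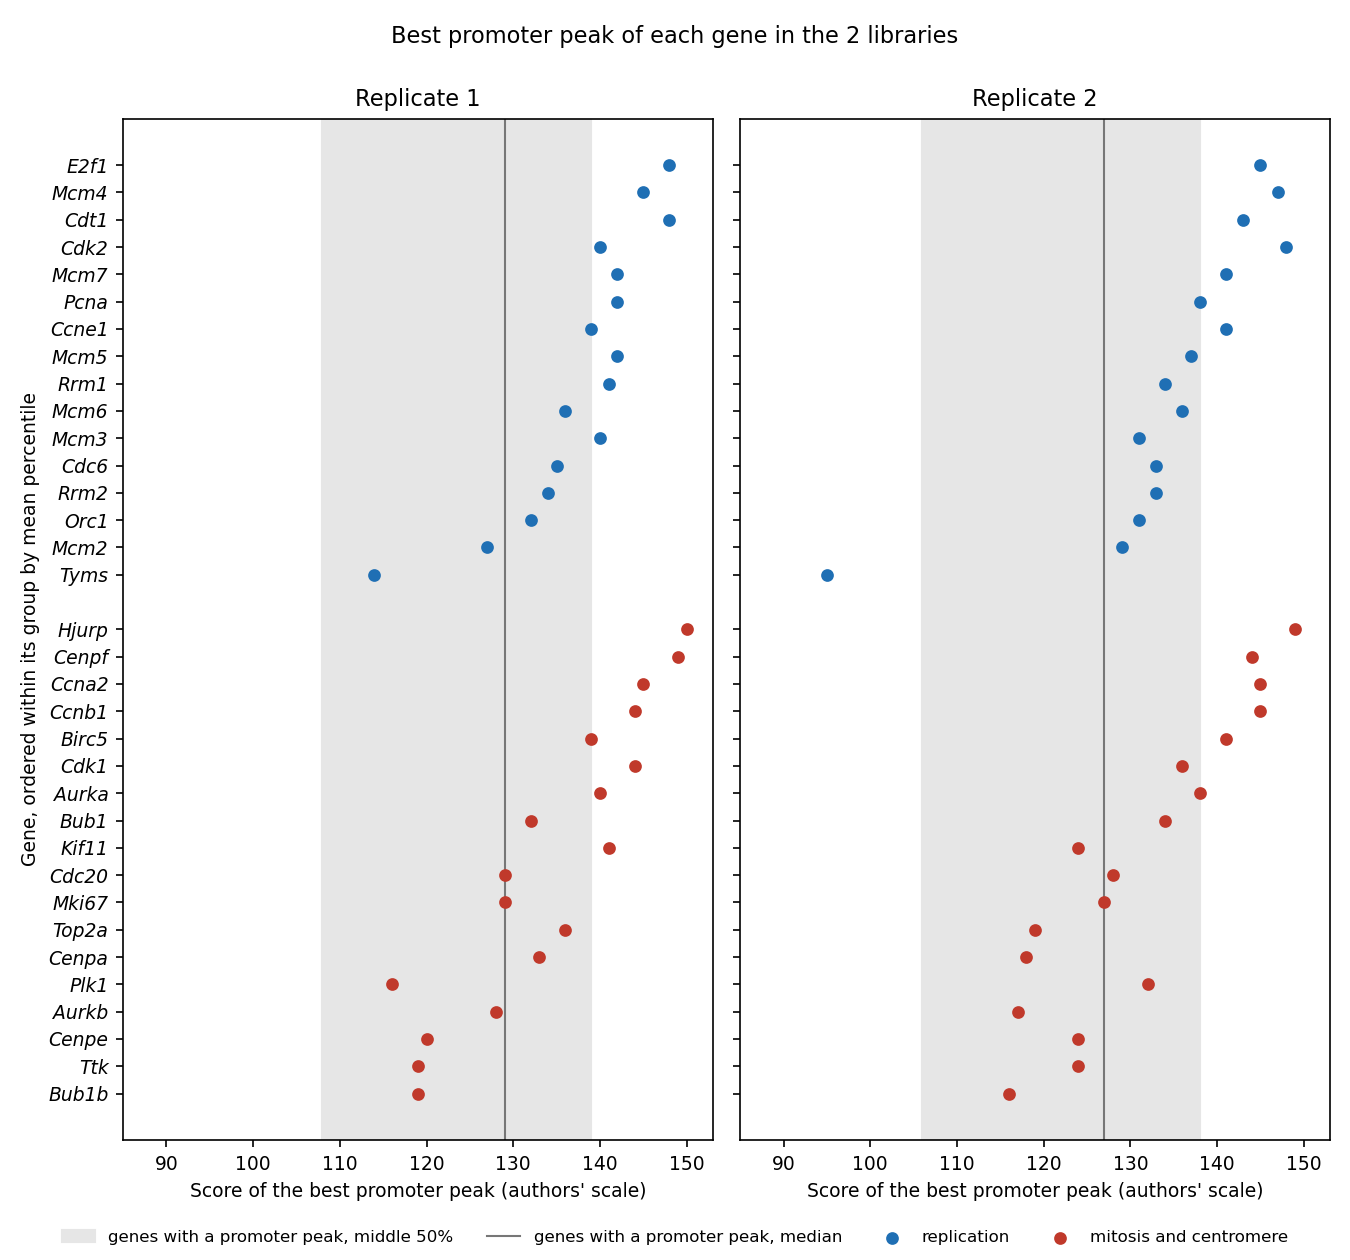
Score of the best promoter peak of each of the 34 genes in replicate 1 (left) and replicate 2 (right), on the authors' scale, with the median (line) and the middle 50% (band) of the 12973 genes with a promoter peak in both libraries. Tyms is the lowest gene in both panels, at 114 and 95, and Hjurp the highest, at 150 and 149.

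The promoters of the 34 genes ranked high in each library. The best promoter peak lay at a median percentile of 98.1 in replicate 1 and 97.1 in replicate 2, against 95.5 and 95.3 over the 12973 genes with a promoter peak in both. The whole set of best promoter peaks ranks high, so on this scale the difference from other promoters spans few points. The median scores of the 34 genes were 139 in replicate 1 and 134 in replicate 2. Ranked only among the best promoter peaks of genes in each library, these scores stood at percentiles 75.8 and 66.1. In 33 of the 34 genes the best peak was at or above the 90th percentile in both libraries, against 41.5% of all genes and 70.2% of those with a promoter peak in both, and Tyms was the exception. In 7 of the 34 it was at or above the 99th percentile in both (E2f1, Mcm4, Cdt1, Hjurp, Cenpf, Ccna2 and Ccnb1), against 5.02% of all genes and 8.48% of those with a promoter peak in both.

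Of the genes that license origins, Cdt1 (chromosome 8, 122568015 to 122573554), which loads the Mcm helicase, scored 148 in replicate 1 and 143 in replicate 2. Mcm4 (chromosome 16, 15623897 to 15637400) scored 145 and 147. The Mcm4 peak also lay within 1 kb of a start of Prkdc, the DNA-dependent protein kinase, and cannot be assigned to 1 of them. Mcm7 scored 142 and 141, at a peak that also lay at a start of Ap4m1, an adaptor complex gene. Mcm5 scored 142 and 137, Mcm6 136 and 136, and Mcm3 140 and 131. Mcm2 (chromosome 6, 88883474 to 88898780) was the lowest helicase gene, at 127 and 129. The 6 helicase subunits thus spanned 127 to 145 in replicate 1 and 129 to 147 in replicate 2, with Mcm4 highest and Mcm2 lowest in both libraries. Cdc6, which loads the helicase with Cdt1, scored 135 and 133. Orc1 (chromosome 4, 108579423 to 108614833), the largest subunit of the origin recognition complex, scored 132 and 131. Its peak also lay at a start of Prpf38a, a splicing factor gene.

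Among the genes of DNA synthesis, Pcna, the sliding clamp of DNA polymerases, scored 142 and 138. Rrm1 and Rrm2 encode the subunits of ribonucleotide reductase, which makes deoxynucleotides, and scored 141 and 134 for Rrm1 and 134 and 133 for Rrm2. Tyms (chromosome 5, 30058202 to 30073617), thymidylate synthase, scored 114 and 95, at percentiles of 91.2 and 86.2. It was the lowest of the 34 in both libraries, and its percentile fell by 5.08 points from replicate 1 to replicate 2, the largest change among the 34 in either direction.

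Genes of S phase entry all ranked high. E2f1 (chromosome 2, 154559407 to 154569892), a transcription factor of replication genes, scored 148 and 145 and had the highest mean percentile of the replication genes. Cdk2 scored 140 and 148. Ccne1, cyclin E1, scored 139 and 141. Over genes with a promoter peak in both libraries the upper quartile was 139 in replicate 1 and 138 in replicate 2. All 3 stood above it in replicate 2 and at or above it in replicate 1. The Cdk2 peak also lay at the start of Pmel, a melanosome gene.

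Among the kinases and cyclins that bring cells into mitosis, Ccna2, cyclin A2 (chromosome 3, 36564865 to 36572150), scored 145 in both libraries. Ccnb1, cyclin B1, scored 144 and 145, and Cdk1 scored 144 and 136. Aurka, a kinase of the centrosome, scored 140 and 138, with a peak that also lay at a start of Cstf1, an RNA processing gene. These 4 genes exceeded the same upper quartile of 139 in replicate 1. In replicate 2, where it was 138, Ccna2 and Ccnb1 exceeded it, Aurka equalled it and Cdk1 lay below. Plk1, a kinase of mitotic entry and the spindle, scored 116 and 132, and its percentile was 4.77 points higher in replicate 2. Aurkb, the kinase of the chromosomal passenger complex, scored 128 and 117. Both genes lay below the median of genes with a promoter peak in both, 129 and 127, in 1 library at least, so the kinases did not rank alike.

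Genes of the spindle and its checkpoint ranked lower. Birc5 (survivin, of the passenger complex) scored 139 and 141 and Bub1 scored 132 and 134. Kif11 scored 141 and 124, and its percentile fell by 4.0 points, so its place above or below that median depended on the library. Cdc20 scored 129 and 128. Ttk (chromosome 9, 83834689 to 83872389), the Mps1 checkpoint kinase, scored 119 and 124. Bub1b (chromosome 2, 118598211 to 118641591), BubR1 of the mitotic checkpoint complex, scored 119 and 116 and had the lowest mean percentile of the mitotic genes. Ttk and Bub1b lay below the medians of 129 and 127 in both libraries. Of the 2 genes of chromosome structure, Mki67 scored 129 and 127, equal to these medians, and Top2a scored 136 and 119, above in replicate 1 and below in replicate 2.

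The 4 centromere genes split into a high and a low pair. Hjurp (chromosome 1, 88262471 to 88277633) scored 150 and 149, at or next to the ceiling, with a peak that also lay at a start of Trpm8, a cold-sensing channel gene. Cenpf (chromosome 1, 189640606 to 189688086) scored 149 and 144. Cenpa, the centromeric histone itself, scored 133 and 118. Cenpe (chromosome 3, 135212537 to 135273611), the kinetochore motor, scored 120 and 124. The pair of Hjurp and Cenpf lay above the other pair in both libraries.

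**Figure D2:**
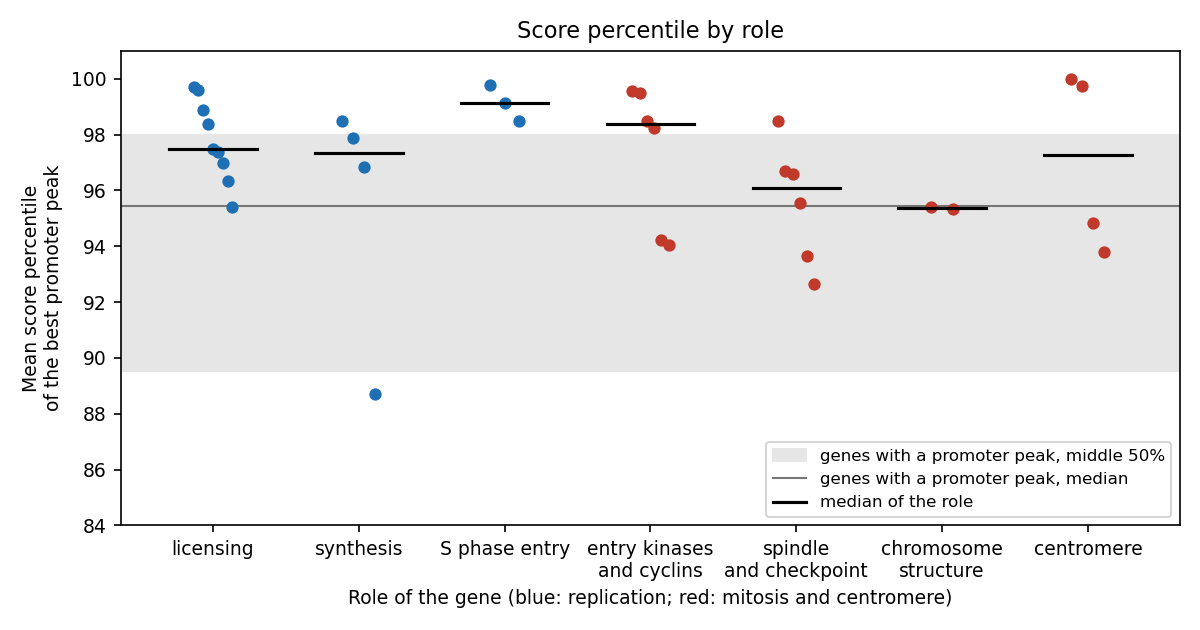
Mean score percentile over the 2 libraries of the best promoter peak, by role (points are genes, black lines medians of a role), with the median and middle 50% of the 12973 genes with a promoter peak in both libraries. The S phase entry genes have the highest median, 99.1, and the chromosome structure genes the lowest, 95.4.

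Replication and mitosis genes overlapped widely in rank. The median percentile was 98.3 in replicate 1 and 97.8 in replicate 2 for the 16 replication genes, and 96.9 and 96.1 for the 18 mitotic and centromere genes. The medians of the mean percentile were 98.1 and 96.1, a difference of 2.05 points. Mean percentiles ran from 88.7 to 99.8 in the replication genes and from 92.6 to 99.99 in the other group, so neither group lay apart. Between the libraries the percentile of Plk1 was 4.77 points higher in replicate 2 and that of Tyms fell by 5.08 points, changes of single genes that exceed the difference between the groups.

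The peaks sat close to the start sites. The centre of the best shared peak lay upstream of the nearest start in 27 of 34 genes and in an untranslated exon in the other 7 (Mcm7, Pcna, Rrm1, Mcm2, Hjurp, Ccna2 and Cenpa). The upstream share, 79.4%, was close to the 72.6% of the 12973 genes with a promoter peak in both libraries. The distance to the start ran from 1 bp in Bub1b to 169 bp in Mki67, with a median of 73.5 bp. It was 100 bp or less in 26 of the 34 genes, and in 8659 of the 12902 genes with such a peak. Promoters held 1 to 8 peaks per gene in replicate 1 and 1 to 7 in replicate 2, with a median of 3 in both, which is also the median of all genes with a promoter peak in both. Mcm3, Cdc6 and Ttk had a single peak in each library. Rrm2 had 6 in each, all 6 shared.

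The hotspots round these peaks were of ordinary width. Their median was 1243 bp in replicate 1 and 1302 bp in replicate 2, against 1339 and 1281 bp over all genes with a promoter peak in both. E2f1 had the widest, at 2666 and 2412 bp, and that of Hjurp was 2444 and 2329 bp wide. Both had peaks above the 99th percentile, but so had Ccnb1, whose hotspot was the narrowest in replicate 2, at 513 bp, and equal narrowest in replicate 1, at 564 bp. Cdc20 had the same width in replicate 1, 564 bp, and a wider hotspot in replicate 2, of 948 bp.

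Of the words searched, CCAAT was the most frequent in the peaks themselves. It occurred in the best shared peak of 11 of 16 replication genes and 12 of 18 mitotic and centromere genes, against 29.0% of the 12902 genes with such a peak. CHR words occurred in 6 of the 18 (Cdk1, Bub1, Mki67, Top2a, Aurkb and Bub1b) and in 1 of the 16 (Rrm1), against 4.44% of genes. E2F words occurred in 2 of the 16 (Mcm4 and Mcm6) and in 1 of the 18 (Cdk1), against 2.26%. The groups thus shared the CCAAT word at a like frequency, while the CHR word was found mainly in mitotic genes. These counts are small and are given as descriptions without a test.

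Other promoter words occurred in the peaks as follows. The SP word GGGCGG was found in 20 of the 34 peaks, against 55.9% of genes, and the ETS word CCGGAAG in 5, against 14.7%. The NRF1 words GCGCATGCG and GCGCAGGCG were found in 3 (7.29% of genes), the CRE word TGACGTCA in 2 (3.13%) and the E-box CACGTG in 3 (7.08%). The YY1 word AAGATGG was in none of the 34 (3.69% of genes). An SP word can overlap an E2F word where both share GCGG.

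The window of 300 bases in the RefSeq promoter table, from 250 before to 50 after a start, gave a fuller view, because a peak of 150 bp can end short of the start. The table matched 31 of the 34 genes, 15 for replication and 16 for mitosis and the centromere, but not Mcm4, Ccna2 and Aurkb. It matched 16522 of all genes. E2F words were present in 8 of 15 replication promoters (Cdt1, Cdk2, Mcm7, Mcm5, Mcm6, Mcm3, Cdc6 and Orc1) and in 1 of 16 mitotic ones (Cdk1), against 3.32% of all genes. CHR words were present in 13 of the 16 mitotic and centromere promoters and in 2 of the 15 replication promoters (Mcm7 and Mcm2), against 19.4% of all genes. The 3 mitotic genes without one were Ccnb1, Birc5 and Cenpe. CCAAT was present in 10 of 15 and 15 of 16, against 42.1%. Over the 10120 matched genes with a promoter peak in both libraries, the shares were 4.63% for E2F, 15.9% for CHR and 42.8% for CCAAT. The SP word was in 25 of the 31 promoters, against 51.0% of all genes and 68.5% of those with a promoter peak in both, and the ETS word in 7, against 13.4% and 19.9%. Among the 31, Cdk1 and Mcm7 were the genes that held E2F and CHR words together.

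**Figure D3:**
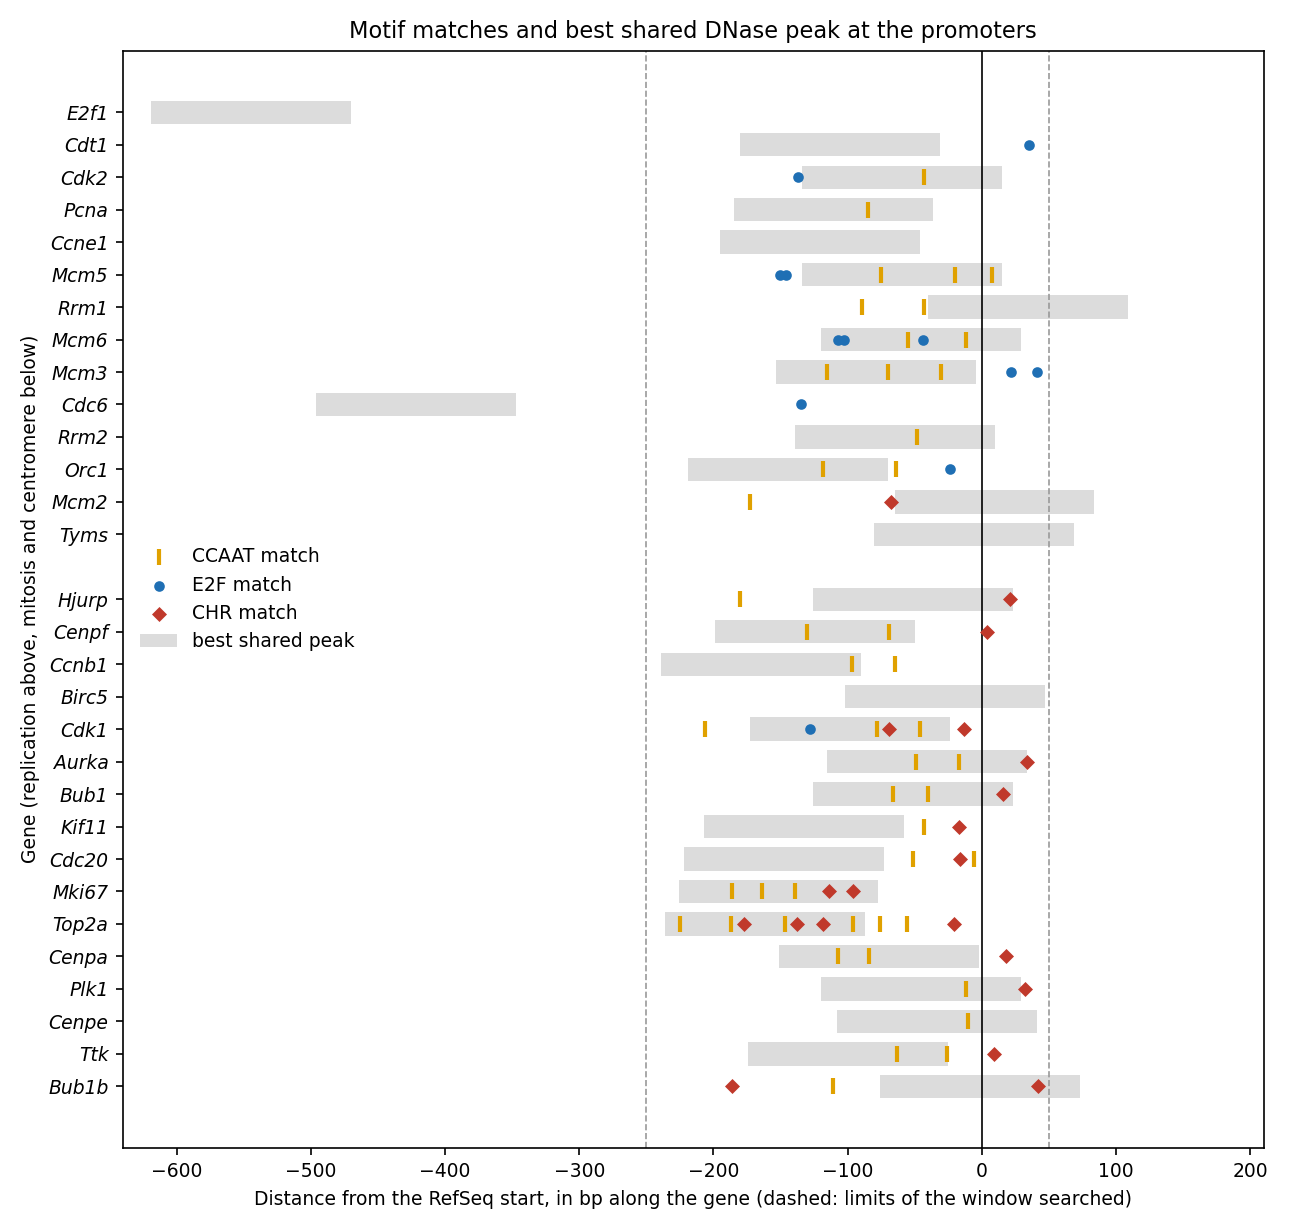
Positions of E2F (circles), CHR (diamonds) and CCAAT (bars) matches and of the best shared peak (grey) along each gene, in bp from the RefSeq start, for the 30 genes with 1 RefSeq start. CHR matches of the mitotic genes cluster near the start, at a median of −16 bp, with CCAAT matches further upstream, at −76 bp.

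The positions of the matches differed between the groups of words. The 19 CHR matches of the mitotic and centromere genes lay between −186 and +42 bp of the RefSeq start, with a median of −16 bp. Of these, 12 (63.2%) lay within 50 bp of the start, against 23.5% of the 3790 CHR matches of all genes, whose median was −132.5 bp. The 31 CCAAT matches of the same genes had a median of −76 bp, and the 13 E2F matches of the replication genes one of −103 bp, from −162 to +41 bp. By these medians CCAAT stood upstream of CHR in the mitotic group. In E2f1 and Cdc6 the best shared peak lay at another annotated start, with its centre 544 and 421 bp upstream of the RefSeq start.

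In the mitotic and centromere genes, CCAAT matches lay mostly inside the accessible peak. The CHR matches lay in it or beside it, from −185 to +141 bp of its centre. Of the CCAAT matches of the mitotic and centromere genes, 22 of 31 (71.0%) were inside the best shared peak, and of the CHR matches 8 of 19 (42.1%). Over all genes with such a peak the shares were 46.8% of 7152 CCAAT matches and 17.6% of 1830 CHR matches. Measured from the peak centre, the CHR matches of these genes had a median of +73 bp downstream and CCAAT matches one of +20 bp, against −94 and −11 bp over all genes. For E2F in the replication genes, 3 of 13 matches (23.1%) lay inside the peak, all of them in Mcm6, against 32.9% of 495 over all genes.

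In every mitotic or centromere promoter with a CHR word, all 13, a CCAAT word lay upstream of it in the same window. The share over the 3212 genes with a CHR word was 21.4%. The window has a fixed upstream end, so a CHR word further upstream left fewer bases to search for CCAAT. The median CHR position was −16 bp in the mitotic and centromere genes and −132.5 bp over all genes. These shares thus rest on unequal search lengths, and the effect of this was not tested. The smallest distance from CCAAT to CHR, centre to centre, was 50 bp or less in 7 of the 13, against 10.7% of the 3212. It was 10 bp in Cdk1 and Top2a, 26 bp in Kif11 and Mki67, 35 bp in Ttk, 36 bp in Cdc20 and 44 bp in Plk1. In the other 6 it ran from 52 bp in Aurka to 202 bp in Hjurp. This distance was measured after the positions had been seen.

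**Figure D4:**
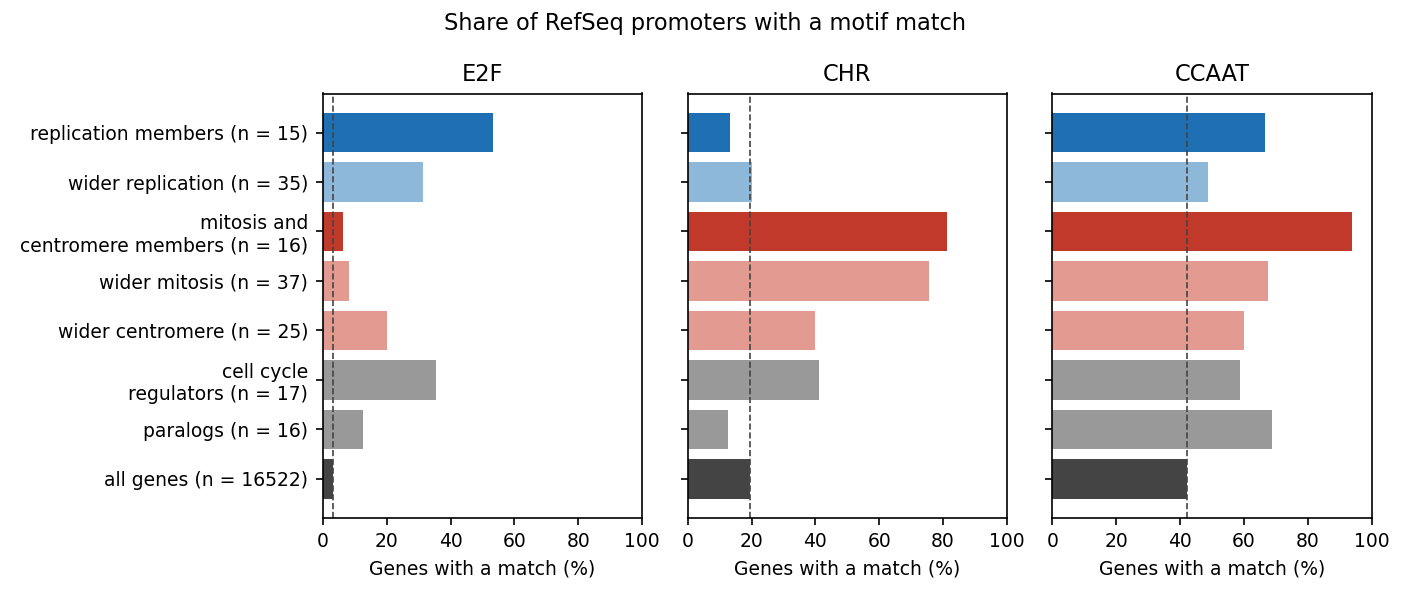
Share of genes with an E2F, CHR or CCAAT word in the RefSeq promoter, for the listed genes, 5 wider lists and all genes (dashed line). The CHR share is 81.3% in the mitotic and centromere genes and 75.7% in the wider mitosis list, against 20% in the wider replication list.

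Wider lists of genes in the same pathways gave similar counts. A promoter peak in both libraries was found in 45 of 45 further replication genes and 45 of 45 further mitosis genes. It was also found in 28 of 28 further centromere genes and 22 of 22 transcription regulators of the cell cycle, against 59.2% of all genes. The best shared peak also lay at another coding gene in 31.1%, 31.1%, 35.7% and 18.2% of these lists, in that order. Over genes with a promoter peak in both libraries the share was 20.4%. High ranks in replication went to Gins2 (149 and 147), of the replicative helicase complex, and Rfc5 (146 and 145), of the clamp loader. In mitosis the highest were the condensin genes Smc4 (146 and 146) and Ncapd2 (147 and 144), with Wee1, the kinase that restrains Cdk1, and Nek2, a centrosomal kinase, tied behind them (145 and 144 each). Nek2 was named for the tie after its values were seen. At the centromere they were Cenpk (144 and 141), Cenpp (142 and 142) and Cenpq (143 and 140), all of the constitutive centromere network. Among the regulators they were Rbbp4 (146 and 147), of the MuvB complex, and Nfya (145 and 147) and Nfyb (145 and 145), subunits of NF-Y. These lists were thus as fully covered as the 34 genes. The lowest rank among them, singled out after its values were seen, was that of Ccnb2, cyclin B2, with scores of 54 and 75, while Ccnb1 scored 144 and 145.

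Paralogs with uses in the germ line or outside division were covered in part. Promoter peaks in replicate 1 and replicate 2 alike were found at 9 of 18 such genes. For so short a list this share of 50% is close to the 59.2% of all genes. The highest were Mcm9 (147 and 147), a helicase of recombination, Rrm2b (145 and 142), the p53-induced reductase subunit, and Rec8 (138 and 130), the meiotic cohesin. No promoter peak was found in either library at Ccna1, Ccnb3, Aurkc, Mcmdc2, Smc1b, Dmc1 and Rad21l. Ccna1, Smc1b, Dmc1 and Rad21l are examples among them with known roles in meiosis. Plk5 (score 28) and Stag3 (score 15), another meiotic cohesin, had 1 in replicate 2 only, at a low score. The somatic counterparts Ccna2, Ccnb1, Aurka and Aurkb had peaks in both libraries where Ccna1, Ccnb3 and Aurkc had none. This contrast did not hold over the list, as 9 of the 18 paralogs, the meiotic Rec8 among them, had peaks in both.

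The motif counts of the wider lists were these. CHR words were in 28 of 37 matched promoters of the mitosis list, 10 of 25 of the centromere list and 7 of 35 (20%) of the replication list, against 19.4% of all genes. E2F words were in 11 of 35 of the replication list, 3 of 37 of the mitosis list and 5 of 25 of the centromere list, against 3.32%. CCAAT words were in 17 of 35, 25 of 37 and 15 of 25 of these lists, and in 11 of 16 paralogs, against 42.1% of all genes. The regulators held E2F words in 6 of 17 and CHR words in 7 of 17. The paralogs held each in 2 of 16 (12.5%), counts too small to set apart from the shares of all genes. In the mitosis list the median CHR position was 0 bp, at the start itself, and 20 of its 28 genes with a CHR word had a CCAAT word 50 bp or less upstream, against 10.7% of all genes with a CHR word. The wider mitosis and replication lists thus showed the same order of the 2 shares as the 34 genes.

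**Figure D5:**
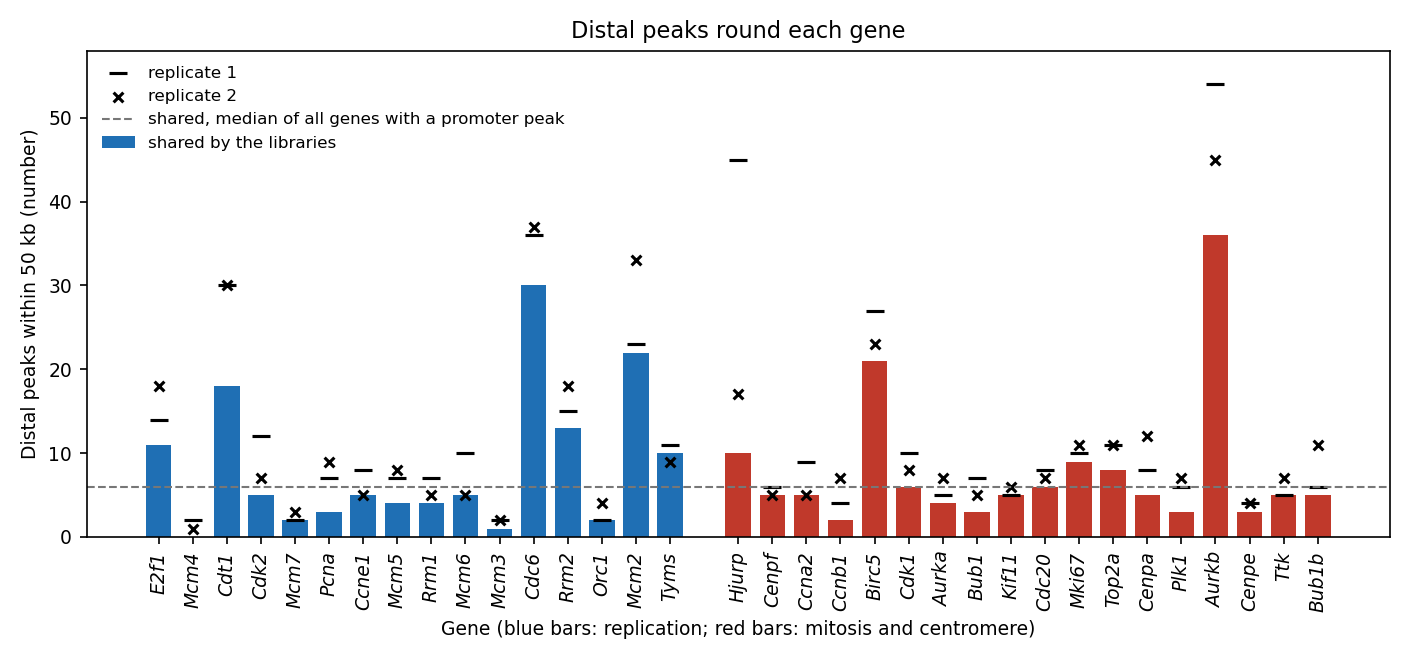
Distal peaks within 50 kb of each gene: bars are peaks shared by the 2 libraries, dashes and crosses all distal peaks of replicate 1 and replicate 2, and the dashed line the median of shared peaks, 6, over genes with a promoter peak in both. Aurkb, Cdc6 and Mcm2 have the most shared peaks, 36, 30 and 22, and Mcm4 has 0.

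Away from promoters the genes differed more from each other. Distal peaks were those outside the promoter of any coding gene whose centre was within 50 kb of the outermost start of the gene. The median number shared by the libraries was 5 in both groups, against 6 over all genes with a promoter peak in both and 4 over all genes. Of the 34 genes, 9 (26.5%) had 10 or more, against 19.5% of all genes and 27.3% of those with a promoter peak in both, so this share is close to that of other genes with such a peak. No 2 of the 34 windows overlapped.

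Aurkb (chromosome 11, 69045647 to 69051664) had the most, with 54 distal peaks in replicate 1, 45 in replicate 2 and 36 shared. Cdc6 (chromosome 11, 98907801 to 98923940) had 36 and 37, with 30 shared, and Mcm2 had 23 and 33, with 22 shared. Birc5 had 21 shared and Cdt1 18. The windows also hold other genes: 7 coding genes start round Aurkb and 3 round Cdc6 and Mcm2, itself included, so these peaks are not assigned to 1 gene. The nearest shared distal peak lay 1105 bp from the start in Bub1 and 42780 bp in Ccnb1, with a median of 7999 bp over the 33 genes that had one, against 5501 bp over all genes with a promoter peak in both. The highest distal peak of Cdt1 scored 143 and 141, 17535 bp downstream of the start, and that of Ccne1 scored 144 and 138, 22484 bp downstream.

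At the other end, Mcm4 had 2 distal peaks in replicate 1 and 1 in replicate 2, and none shared. Mcm3 had 2 in each library and 1 shared. Mcm7, Orc1 and Ccnb1 had 2 shared each. Mcm4 and Ccnb1 were among the genes with best promoter peaks above the 99th percentile, while Cdt1, of the same rank class, had 18, so a high promoter rank came with few distal peaks in some genes and many in others. Hjurp differed most between libraries, with 45 distal peaks in replicate 1, 17 in replicate 2 and 10 shared. The cause of that difference was not tested.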

How the data were processed

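DNase-seq peaks and hotspots of 2 MN1 libraries were used as deposited, on assembly mm10. Per the notes deposited with them, each list was made from 1 library's filtered alignments, with no pooling. A name or threshold is not given in the sources used here for the aligner or the peak caller. Deposited peaks carry a score made by the authors, and the deposited hotspots a q-value on the −log10 scale. Scores were ranked within a library (mean rank for ties), after repeated entries were dropped (43 and 20) and with the 19 autosomes, X and Y only. Peaks were assigned to genes of GENCODE M21 by overlap of 1 bp with the region within 1 kb of any start site. Sharing between libraries also needed 1 bp. Distal peaks lay outside all promoters, with their centre within 50 kb. Motifs were exact words on both strands of GRCm38.p6, in the best shared peak (coordinates of replicate 1) and in RefSeq promoters. The assignment of promoter peaks, the count of shared distal peaks and the motif search were tested on simulated intervals and sequences (Python 3.11.15, numpy 2.4.6, pysam 0.24.0).

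The genes, wider lists and motifs were chosen with earlier results of these data known, so counts and medians are descriptions and no p-value was computed. Read depth is unknown, so no interval was given, and the replicates are named biological in the labels. All 34 genes were accounted for. From each wider list the text names the 3 genes with the highest mean percentile and those without a promoter peak in both libraries. A gene that this rule names is not reported here. Sequences were shown for genes with an E2F or CHR word, in order of mean percentile, with at most 30 bases of an annotated untranslated exon; Hjurp was added after its values were seen. Alternatives were other windows, the outermost start only, peaks above the median score of each list, other distal distances, and each replicate left out.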

Additional observations from a re-analysis of the deposited data

How the results depend on the processing

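Of 147 recomputed values for 21 results, 122 stayed within 1.5 times a count or within 1 SD between the replicates for other values, and 25 moved. The presence of promoter peaks in all 34 genes did not change under any alternative run. With a wider promoter window or 1 replicate left out it could not change, because every gene already met the stricter rule. The same holds for the wider lists in which every gene had a peak, and such runs are among the 122. The median percentile of the mitotic and centromere genes was 96.1 to 96.9 with 1 replicate left out, against 96.1 over both. The difference of replication minus mitosis medians, 2.05 points, was 1.80 with the outermost start only and 1.42 to 1.66 with 1 replicate left out, and it stayed positive throughout. CHR words in replication peaks went from 1 gene to 2 with the outermost start. The RefSeq window in place of the peak gave 8 replication genes with an E2F word instead of 2, 2 with a CHR word instead of 1, and 13 mitotic genes with a CHR word instead of 6. Median shared distal peaks, 5 for all 34, were 2.5 within 25 kb, 11 within 100 kb, 6 round any start, 2 among peaks above the median score, and 7 to 8 with 1 replicate left out. For replication genes these were 2, 9.5, unchanged at 5, 3, and 7.5 to 9. For mitotic and centromere genes they were 3, 11, 6, 2, and 7 to 7.5. Assigning peaks by their centre, an alternative added after seeing the data, left the counts of listed and wider genes with a promoter peak and the medians of distal peaks as they were; it was not run for motifs or hotspots. Fewer distal peaks follow from a narrower window by construction. The unknown read depth and the ceiling of the score limit how finely promoters can be ranked, and the 2 libraries give 1 estimate of spread.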
